A study of Mus musculus with 12 samples.

Results

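Aminoacyl-tRNA synthetases are the enzymes that join each amino acid to its tRNA, and the mRNAs of 36 of their genes, 20 for cytosolic and 16 for mitochondrial enzymes, were followed in RNA bisulfite sequencing (RNA BS-seq) data of mouse neural stem cells. The genes were taken as a family, by name, from 15487 genes with at least 1 usable cytosine in a library. Of the 36, 33 had at least 10 usable cytosines in each library (20 cytosolic and 13 mitochondrial) and were tested among 7475 genes that passed the same filter. Mars2, Rars2 and Wars2, for mitochondrial methionyl-, arginyl- and tryptophanyl-tRNA synthetase, had as few as 2, 9 and 1 such cytosines in a library and were not tested. The files write Mars1, methionyl-tRNA synthetase, as Mars, and it is called Mars1 here.

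The cells were neural stem cells (NSCs) from the subventricular zone of wild-type adult male C57BL/6 mice, grown as a monolayer on poly-ornithine and laminin with EGF and bFGF. No group carried a transgene or a deletion. They were kept for 4 days with 1.5 μM folic acid (low folate, LF), 10 μM (medium, MF) or 80 μM (high, HF). Poly(A) RNA was sequenced after bisulfite treatment either from total RNA (LF, MF and HF) or from the polysome fraction, the mRNAs bound to several ribosomes (pLF, pMF and pHF), which made 12 libraries, 2 replicates for each of 6 conditions. In bulk RNA, fewer cells with a transcript and less of the transcript per cell cannot be told apart.

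Each tRNA has to be charged with its own amino acid before it can enter the ribosome. Cytosolic synthetases do this for nuclear-encoded proteins, and a separate, nuclear-encoded set serves the ribosomes inside mitochondria, with a few genes (Gars for glycine, Kars for lysine) giving enzymes for both compartments. Several cytosolic synthetases, among them Eprs, Iars, Lars, Qars, Mars1, Kars, Rars and Dars, sit together in a multi-synthetase complex. When amino acids run short or the endoplasmic reticulum is stressed, the transcription factor ATF4 is known to raise the transcription of amino acid enzymes and transporters and of many cytosolic synthetases. RNA BS-seq reads an unmethylated cytosine as T and a 5-methylcytosine (m5C) as C, so that the share of unconverted reads at a cytosine is its methylation level.

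The lists held 797260 to 2071190 cytosines a library, each with a coverage of at least 10 reads and at least 1 unconverted read, and their median coverage was 335 to 920. For each gene the median coverage over its cytosines with a level under 0.05 was taken, and its log2 was set against the median gene of the library; this difference is called the relative coverage below. Since a cytosine of a weakly covered mRNA is listed only where a read happened to stay unconverted, low genes are listed at their best covered cytosines. This can alter differences for them, in a direction and by an amount that were not measured. Across the 7475 genes the relative coverage of the LF and MF libraries correlated among themselves with r of 0.90 to 0.91, that of the 2 libraries labelled HF with the LF and MF libraries with r of 0.72 to 0.75, and the 2 with each other at r = 0.81; these are correlations across genes, which are not independent replicates. At the positions of the study's m5C site list, the libraries labelled HF had a coverage equal to the list's at 1 of 93 and 0 of 88. Their listed coverage was below it at 41 and 44 of these positions, and they lacked 6 and 7 more. The other 10 libraries had 0 lower or absent. Their coverage was equal at 94 of 174 (second pLF library) to 128 of 180 positions (second pHF library). The second pHF library held 38353 cytosines with a level over 0.9, against 1102 to 3465 in the others. Of every 1000000 unconverted reads (the unit of the marker sums that follow), 4905 to 6668 came from genes of neural stem cells, with 7 of 8 markers listed and Sox2 without a value. Markers of oligodendrocytes (0 to 4.80; Mog and Sox10 at none), endothelial cells (0 to 3.65; Cldn5 and Cdh5 at none) and ependymal cells (0 to 2.95; Ccdc153 at none) were near 0. Those of neurons (20.4 to 98.1; Rbfox3, Snap25 and Syt1 at none), astrocytes (24.5 to 143) and microglia (25.4 to 66.5; Csf1r, Aif1 and P2ry12 at none) were low. Of 4 markers of fibroblasts and mural cells, 3 were listed and Dcn was not. Their sum was 50.8 to 85.2 over the LF and MF libraries, and 177 and 200 for those labelled HF. In the polysome fraction it was 47.9 to 106 over pLF and pMF, and 148 and 118 for pHF.

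Cytosolic synthetase mRNAs were mostly well covered in these cells and mitochondrial ones mostly weakly. In the LF and MF total libraries the median relative coverage of the cytosolic genes was 1.20 ± 0.07 (SD, n = 4) on the log2 scale and that of the mitochondrial genes -1.50 ± 0.16. The difference between the classes was 2.53 to 3.67 in each of the 12 libraries, with a median of 2.78. The best covered were the mRNAs of Dars (aspartate) and Sars (serine), higher than 95.5% and 94.6% of the genes tested in the mean of the LF and MF libraries. Pars2 (mitochondrial proline) and Sars2 (mitochondrial serine) stood at 0.7% and 1.4%. Among the mitochondrial enzymes Iars2 (isoleucine) was the exception, at 67.8%. The cytosolic Farsb, Iars and Cars stood near the middle or below, at 41.8%, 49.3% and 50.8%. Because cytosines of low genes are listed at their best covered positions, the gap between the classes may be understated, which was not measured.

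**Figure D1:**
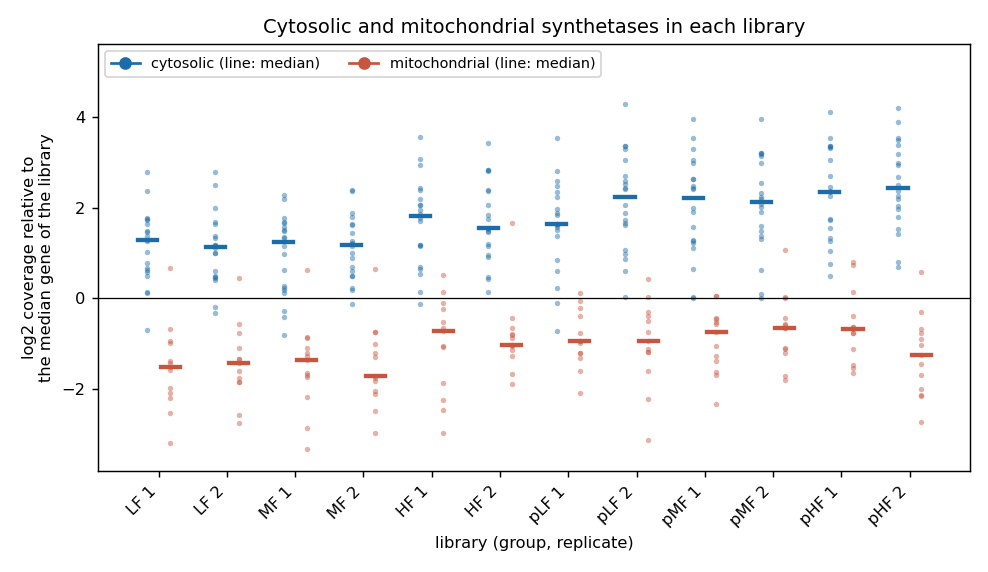
Relative coverage (log2, gene against the median gene of the library) of the 20 cytosolic and 13 mitochondrial synthetase genes in each of the 12 libraries; points are genes and lines the median of the class. The cytosolic median lies between 1.13 and 1.28 in the LF and MF total libraries and between 1.64 and 2.42 in the polysome libraries, and the mitochondrial median stays below 0 in every library.

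The first comparison asked which of these mRNAs take a larger part of polysome mRNA than of total mRNA, over the LF and MF conditions (4 libraries against 4). Cytosolic synthetase mRNAs were mostly higher in polysomes: 14 of 20 rose and 1, Dars, fell at an adjusted p under 0.05, where 16.6% of all genes tested rose and 13.0% fell. Their median log2 difference was 0.89 and 18 of 20 were above 0, beside a median of 0.03 and 51.1% above 0 over all genes. Of the mitochondrial enzymes 5 of 13 rose and 0 fell (6 of 13 at an unadjusted p under 0.05, as were 3149 of the 7475 genes), with a median of 0.74 and 12 of 13 above 0. The mitochondrial median was 0.05 with edgeR on unconverted reads and 8 of 13 were above 0, beside 1.41 and 18 of 20 for the cytosolic genes. All 4 polysome libraries lay above all 4 total libraries for 13 of the 20 cytosolic genes and 6 of the 13 mitochondrial ones (21.2% of all genes), and below them for 1 and 0 (15.4% of all genes). Values were compared by limma on the relative coverage of all 12 libraries, with Benjamini-Hochberg adjustment over the 7475 genes. For polysome RNA the study treated the cultures with cycloheximide, a drug that holds ribosomes on mRNA, then froze and lysed the cells and ran a gradient. It describes none of these steps for total RNA, so the fraction and its preparation cannot be told apart. The summed neuron markers, of which 3 of 6 were listed, were 20.4 to 47.2 of every 1000000 unconverted reads in the LF and MF libraries and 50.4 to 98.1 in pLF and pMF, and their part in the differences was not tested.

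Cars, cysteinyl-tRNA synthetase, had the highest limma difference, while with edgeR on unconverted reads Wars (2.49), Gars (2.46) and Sars (2.24) stood above it (2.15). Its relative coverage was 0.12 and 0.41 in LF and -0.42 and -0.13 in MF, against 2.23 and 2.42 in pLF and 2.63 and 2.54 in pMF. All polysome values were more than 1 log2 unit above all total values, and the gene moved from the middle of all genes (higher than 50.8%) to near the top (92.5%). The log2 difference was 2.46 ± 0.21 (SE; 5.51-fold, limma adjusted p = 7.47e-05).

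Yars, tyrosyl-tRNA synthetase, gave 0.79 and 1.17 in LF, 1.16 and 1.15 in MF, 2.80 and 3.36 in pLF and 3.06 and 3.13 in pMF. The groups did not overlap, and the difference was 2.02 ± 0.17 (4.05-fold, limma adjusted p = 7.47e-05). Gars, glycyl-tRNA synthetase, read 1.49, 1.17, 1.48 and 1.21 in the same total libraries and 2.47, 3.04, 2.99 and 3.20 in the polysome libraries. Its polysome values were again all above the total ones, with a difference of 1.59 ± 0.18 (limma adjusted p = 0.000325).

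Sars, seryl-tRNA synthetase, was already among the best covered genes in total mRNA, at 2.36 and 2.50 in LF and 2.28 and 2.39 in MF, and rose to 3.54 and 4.27 in pLF and 3.94 and 3.95 in pMF. The polysome values were apart from the total ones by more than 1 log2 unit, a difference of 1.54 ± 0.16 (limma adjusted p = 0.000267). Wars, tryptophanyl-tRNA synthetase, lay between 0.19 and 0.62 in total and between 1.50 and 2.06 in polysome libraries, and Aars, alanyl-tRNA synthetase, between 1.68 and 1.80 and between 2.59 and 3.30. Mars1, the methionine enzyme, lay between 0.88 and 1.11 and between 1.97 and 2.59. These 3 rose by 1.49 ± 0.21, 1.35 ± 0.18 and 1.31 ± 0.18 (limma adjusted p = 0.001, 0.000658 and 0.000964).

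Smaller rises were found for Nars (asparagine, 1.26), Hars (histidine, 1.02), Iars (isoleucine, 0.94), Tars (threonine, 0.84), Eprs (the enzyme for both glutamate and proline, 0.80), Rars (arginine, 0.75) and Lars (leucine, 0.53). Their limma adjusted p ran from 0.00297 for Nars to 0.0492 for Lars. Vars (valine, 0.47), Kars (0.40) and the phenylalanine subunits Farsb (0.16) and Farsa (0.13) did not pass, and neither did Qars (glutamine, -0.19). With edgeR on unconverted reads Farsb was at 1.73 (3.33-fold, adjusted p = 1.6e-05) and Qars at 0.75 (adjusted p = 0.018), both called.

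Dars, aspartyl-tRNA synthetase, ran the other way. Its relative coverage was 2.77 and 2.78 in LF and 2.20 and 2.37 in MF, and 0.60 and 1.61 in pLF and 1.28 and 1.48 in pMF. Every polysome library lay below every total library, and the difference was -1.29 ± 0.27 (0.409-fold, limma adjusted p = 0.00612). The fall was not called when the summed unconverted reads of each gene were tested with edgeR instead (-0.31, adjusted p = 0.26), nor with the mean in place of the median of log2 coverage (-0.65, limma adjusted p = 0.101). Over cytosines listed in all 12 libraries it was smaller, at -0.32, but called. The fall was called in 27 of 29 alternatives.

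**Figure D2:**
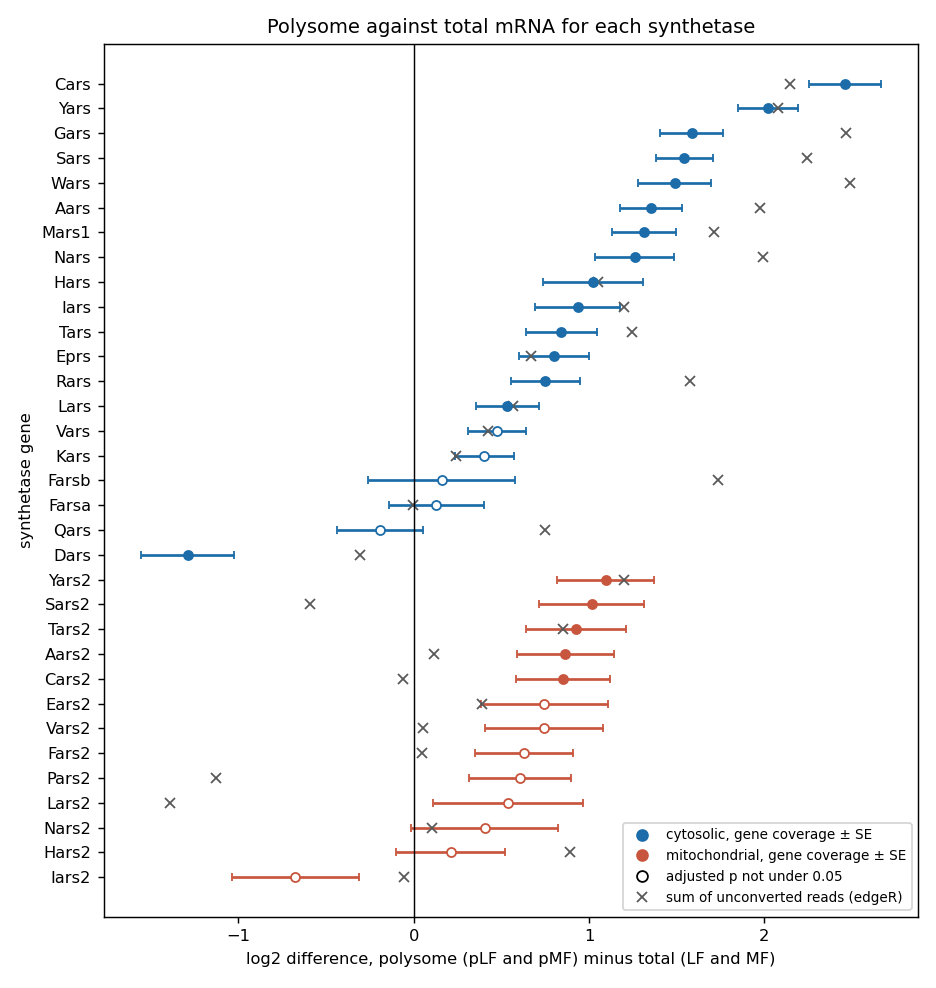
Log2 difference between polysome and total mRNA over LF and MF for each tested synthetase gene, with its standard error; filled points passed an adjusted p of 0.05 and crosses give the edgeR value from unconverted reads. With limma, Cars (2.46) and Yars (2.02) are highest and Dars (-1.29) is the only member called lower, while with edgeR Wars (2.49) is highest and Lars2 (-1.39), not Dars, is called lower; for several mitochondrial genes, Sars2 and Lars2 among them, the 2 measures lie on opposite sides of 0.

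Among the mitochondrial enzymes Yars2 (tyrosine) rose by 1.09 ± 0.28 (limma adjusted p = 0.015), from between -1.74 and -1.42 in total to between -1.11 and 0.00 in polysome libraries. Sars2 (serine) rose by 1.02 ± 0.30, Tars2 (threonine) by 0.93 ± 0.29, Aars2 (alanine) by 0.87 ± 0.28 and Cars2 (cysteine) by 0.85 ± 0.27. Their limma adjusted p was 0.0291, 0.0347, 0.0398 and 0.0381. The lowest values were those of Nars2 (asparagine, 0.40), Hars2 (histidine, 0.21) and Iars2 (-0.67 ± 0.36, limma adjusted p = 0.187), none of which passed.

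Calls were also read across the alternatives. Aars, Cars, Gars, Mars1, Sars, Tars, Wars and Yars were called in each alternative in which they could be tested, and 0 of the 5 mitochondrial calls were. The share of all called genes that stayed called in each alternative, or without 1 library, is not given. These counts therefore cannot be read as particular to the synthetases or to a class, and the difference between the classes was not tested. With edgeR on summed unconverted reads 15 of 20 cytosolic genes rose and 0 fell (19.5% and 20.0% of all genes). There Yars2 (1.20, adjusted p = 0.0309) was the only mitochondrial gene that rose, Lars2, for leucine, fell (-1.39, adjusted p = 0.0107), and Sars2 (-0.59) and Cars2 (-0.06) were below 0. The mitochondrial calls went to 0 without LF replicate 1, MF replicate 1 or MF replicate 2. The limma differences changed little when 1 library was left out, with Yars2 at 0.92 to 1.28, Sars2 at 0.90 to 1.13, Tars2 at 0.83 to 1.02, Aars2 at 0.75 to 0.98 and Cars2 at 0.77 to 0.92.

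**Figure D3:**
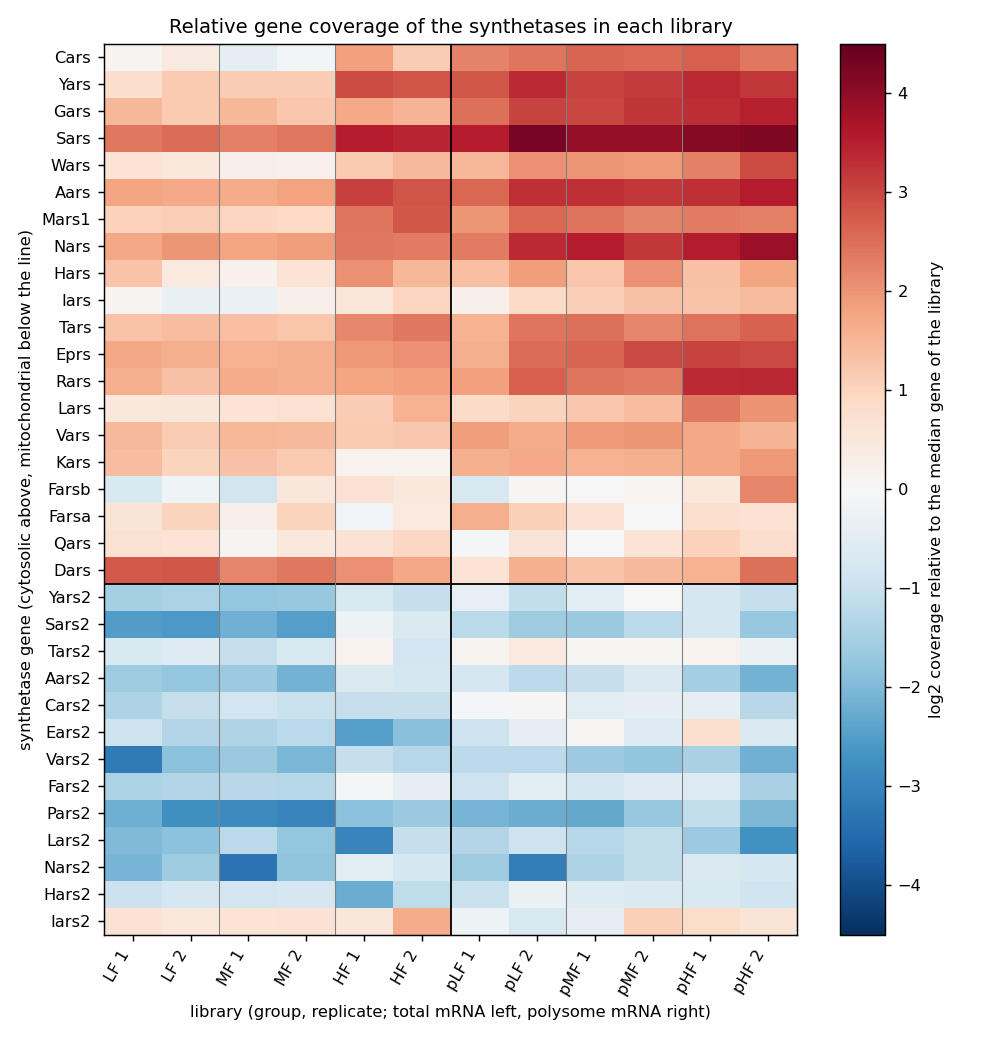
Relative coverage (log2) of the 33 tested synthetase genes in the 12 libraries, ordered by class. Most cytosolic genes are higher in the polysome columns than in the LF and MF columns (Cars from between -0.42 and 0.41 to between 2.23 and 2.63) and the libraries labelled HF stand between for several of them, while Dars runs the other way.

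The 8 members of the multi-synthetase complex, grouped after their values were seen, held 5 of the rises and the fall of Dars (16.6% and 13.0% of all genes), with a median difference of 0.64 and a range from -1.29 to 1.31. The other 12 cytosolic enzymes held 9 rises, with a median of 1.31 and a range from 0.13 to 2.46. The difference between these groups was not tested.

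Taken at 1 concentration at a time, with 2 libraries a side, fewer synthetases passed. At low folate (pLF against LF) 7 cytosolic genes rose and 1 fell (8.12% and 5.28% of all genes), and 0 of the mitochondrial genes did either with limma, 3 having an unadjusted p under 0.05 (2251 of the 7475 genes). With edgeR on unconverted reads 1 mitochondrial gene was called, where 1689 of the 7475 genes were. The 7 were Yars (2.10), Cars (2.06), Sars (1.48), Gars (1.42), Wars (1.23), Aars (1.22) and Mars1 (1.22), and Dars fell by 1.67. In edgeR on unconverted reads Dars was at -0.40 (adjusted p = 0.358) and not called. At medium folate (pMF against MF) 11 cytosolic genes and 1 mitochondrial gene rose and 0 fell (7.52% and 5.38% of all genes), with Cars (2.86), Yars (1.94), Gars (1.75), Wars (1.74) and Sars (1.61) highest by limma and Gars (2.57) and Wars (2.42) by edgeR on unconverted reads. Yars2 (1.47) was the mitochondrial one. With edgeR on unconverted reads it was at 0.63 (adjusted p = 0.491) and Lars2 was called lower (-1.70, adjusted p = 0.0431).

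At high folate (pHF against the libraries labelled HF) 7 cytosolic genes and 1 mitochondrial gene rose and 0 fell (7.17% and 5.93% of all genes). They were Gars (1.79), Kars (1.70), Rars (1.57), Nars (1.34), Wars (1.27), Cars (1.02), Eprs (1.01) and the mitochondrial glutamate enzyme Ears2 (2.20 ± 0.51, limma adjusted p = 0.0224). Gars and Rars were called here in each alternative. Ears2 was at 0.45 with edgeR on unconverted reads (adjusted p = 0.593), and Kars at 0.20 with edgeR and 0.18 with DESeq2 on summed coverage (adjusted p = 0.128 and 0.19), none of them called. Yars, already at 2.94 and 2.82 in total mRNA there, read 3.36 and 3.18 in pHF and was not called by limma (0.39), while edgeR on unconverted reads called it (1.53, adjusted p = 0.000176). The libraries labelled HF depart from the study's site list, and the part of that departure in these differences was not tested.

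The polysome to total difference was also compared between concentrations. Between low and medium folate 0 of 33 members passed (0.0134% of all genes). At an unadjusted p under 0.05 there were 0 members with limma, and 1 with edgeR on unconverted reads. Between high and medium folate 0 of 33 passed as well (1.11% of all genes), with 11 members at an unadjusted p under 0.05 (1373 of the 7475 genes). The limma values farthest from 0 were those of Aars2 (-2.15 ± 0.55, limma adjusted p = 0.087), Cars (-1.84 ± 0.41, 0.0603), Mars1 (-1.73 ± 0.37, 0.0586), Sars2 (-1.66 ± 0.60, 0.179) and Yars (-1.55 ± 0.34, 0.0602). Kars had the highest value above 0 (1.38 ± 0.34, limma adjusted p = 0.0794). With edgeR on unconverted reads Aars2 (0.13) and Sars2 (1.10) were above 0, and Lars2 (2.41, adjusted p = 0.255) was above Kars (0.40). Some alternatives called members in this last comparison, 8 of 13 tested over cytosines listed in all 12 libraries and 7 of 13 with edgeR or DESeq2 on coverage summed over them. The share of all genes called there is not given, so these counts cannot be read as particular to the synthetases. The comparison of high with medium folate uses the libraries labelled HF, which depart from the study's site list. Folate and that departure cannot be told apart in it. Mean relative coverage in pHF and pMF was 2.53 and 2.59 for Cars, 2.29 and 2.34 for Mars1 and 3.27 and 3.09 for Yars. It was 1.85 and 1.58 for Kars, -1.23 and -1.44 for Sars2 and -1.84 and -0.84 for Aars2.

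Within a fraction, 0 of 33 synthetase mRNAs were called at low against medium folate. With 2 libraries a side, that does not show that none changed. For LF against MF the 0 called stood beside 0.0% of all genes. There 0 members had an unadjusted p under 0.05 with limma (1 with edgeR on unconverted reads). The highest differences were those of Nars2 (0.72) and Cars (0.54), and the lowest those of Vars2, mitochondrial valine (-0.65), and Lars2 (-0.44). Without 1 library Nars2 ran from -0.03 (without MF replicate 1) to 1.47, Vars2 from -1.33 to 0.04 and Lars2 from -0.71 to -0.17, and edgeR on unconverted reads put Nars2 at -0.80 and Cars at -0.22. For pLF against pMF (0.147% of all genes) 2 members had an unadjusted p under 0.05 with limma (626 of the 7475 genes) and 3 with edgeR on unconverted reads. Farsa (1.03) and Vars2 (0.52) were highest and Nars2 (-1.13) and Iars2 (-0.80) lowest with limma. All 4 changed sign with edgeR on unconverted reads, and without 1 library Nars2 ran from -1.89 to -0.37 and Iars2 from -1.55 to -0.05. For pHF against pMF (0.0134%) 0 members passed, and 3 had an unadjusted p under 0.05 with either tool (602 and 712 of the 7475 genes with limma and edgeR). DESeq2 on coverage summed over shared cytosines, which tested fewer members, called 2, and the share of all genes it called is not given. Farsb (1.28) and Rars (1.00) were highest, and Aars2 (-0.99) and Lars2 (-0.99) lowest with limma. Farsb was 0.42 without pHF replicate 2 and 2.13 without pHF replicate 1, and Lars2 ran from -1.52 to -0.45 without 1 library. Both changed sign with edgeR on unconverted reads (-0.74 and 1.13).

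Total mRNA at high folate was compared with MF through the libraries labelled HF. These depart from the study's site list, so folate and that departure cannot be told apart here. Of the cytosolic enzymes 5 rose and 1 fell and of the mitochondrial ones 1 rose, where 3.65% of all genes rose and 2.85% fell. The median differences were 0.72 and 0.71 on the log2 scale, beside -0.02 over all genes. They were 0.44 and 0.14 with edgeR on unconverted reads. Cars read 1.86 and 1.15 there and -0.42 and -0.13 in MF, a difference of 1.78 ± 0.29 (3.44-fold, limma adjusted p = 0.0111).

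Yars, at 2.94 and 2.82, lay above both MF values of 1.16 and 1.15 (1.73 ± 0.24, limma adjusted p = 0.00728). Mars1, at 2.42 and 2.81, was likewise apart from 0.97 and 0.88 in MF (1.69 ± 0.26, limma adjusted p = 0.00919). Aars rose by 1.20 and Sars by 1.15 (limma adjusted p = 0.025 and 0.022).

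Sars2 rose from -2.16 and -2.47 to -0.23 and -0.66 (1.87 ± 0.42, limma adjusted p = 0.0329). Kars fell from 1.32 and 1.19 to 0.14 and 0.14 (-1.11 ± 0.24, limma adjusted p = 0.0279). Nars2 had the highest value of the 33 members (1.91 ± 0.59, limma adjusted p = 0.0899) and did not pass, and neither did Ears2, the next lowest after Kars (-0.89, 0.346). Nars2 was at 0.49 and Ears2 at 0.84 with edgeR on unconverted reads, and without 1 library the limma value of Nars2 ran from 1.16 to 2.66. None of the 7 calls was kept in each alternative, and the share of all called genes that were kept is not given.

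With edgeR on unconverted reads 1 of 33 members was called (0.562% of all genes rose and 0.0936% fell), where Sars2 was at -0.42. Without MF replicate 1 the count of members called was 0 and without MF replicate 2 it was 1. Kars was at 0.09 with edgeR on coverage summed over shared cytosines. These are the libraries that depart from the study's site list and hold more fibroblast and mural marker reads. Those were 177 and 200 of every 1000000 unconverted reads, against 76.6 and 85.2 in MF. The part of either in these differences was not tested. For HF against MF the study's RNA-seq, another assay, reported few changed genes, with mild fold changes and no synthetase among them.

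**Figure D4:**
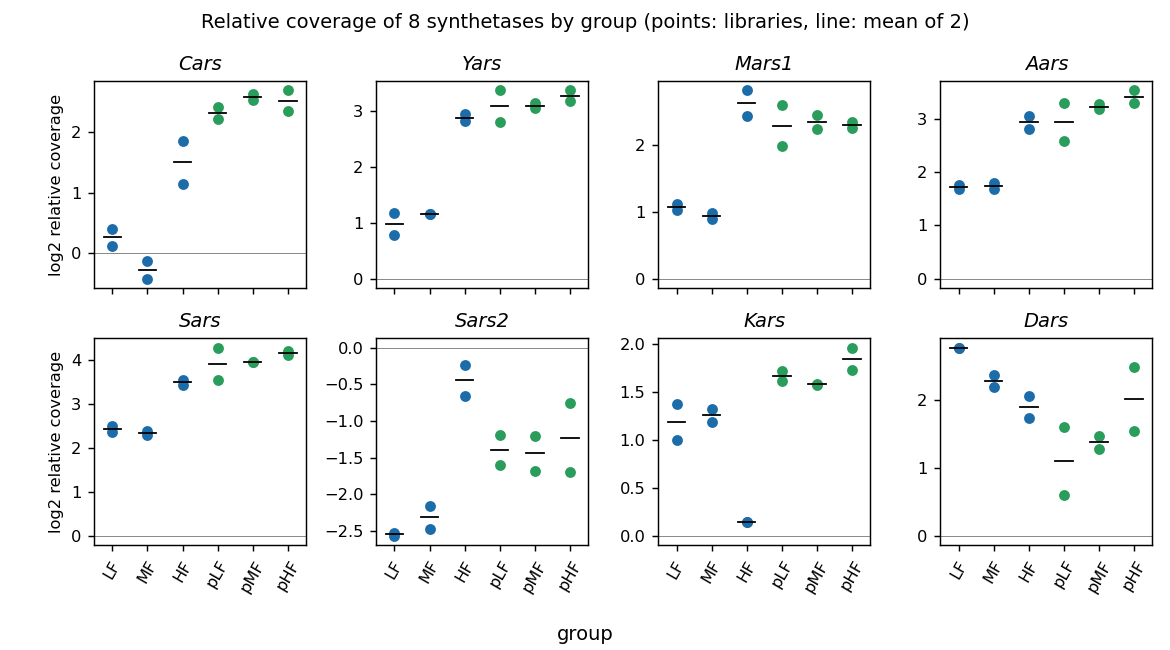
Relative coverage (log2) of Cars, Yars, Mars1, Aars, Sars, Sars2, Kars and Dars in the 6 conditions; points are the 2 libraries of each and lines their mean. Cars, Yars, Mars1 and Aars are higher in the libraries labelled HF than in LF and MF, Kars is lower there (0.14 and 0.14), and Dars is lowest in pLF and pMF.

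Genes around the synthetases were taken from lists. Those of the amino acid response, the known targets and partners of ATF4, were higher in polysome than in total mRNA over LF and MF: 10 of the 13 tested of 16 rose and 0 fell (16.6% and 13.0% of all genes), with a median log2 difference of 2.16. They included Ddit3 (4.53), a stress transcription factor, Asns (3.56), asparagine synthetase, Slc7a5 (2.16), a transporter of large neutral amino acids, and Atf4 itself (1.72). Sesn2 (-0.06), Cebpg (0.40) and Vldlr (0.19) did not pass. In the libraries labelled HF against MF 8 of the 13 rose and 0 fell (3.65% and 2.85% of all genes), with Asns at 4.74 and Ddit3 at 3.11. The 2 comparisons share the MF libraries.

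Of the enzymes and factors that work beside the synthetases, 12 of 19 were tested and 3 rose in polysomes, where 16.6% of all genes rose. These were Dtd1 (1.82), which removes D-amino acids from tRNA, Aarsd1 (1.70), an alanyl-tRNA editing protein, and Trmt61a (0.95), a subunit of a tRNA methyltransferase. The list's median was 0.44. Beside the same 16.6%, 2 of 6 tested elongation factor genes rose, Eef1b2 (0.89) and Eef1d (0.83), while Eef1a1, which carries charged tRNA to the ribosome, was at -0.24 and did not pass. Of 75 tested of 87 genes of mitochondrial translation 23 rose and 4 fell (16.6% and 13.0% of all genes), with a median of 0.60, beside 0.74 for the mitochondrial synthetases. In the libraries labelled HF against MF 1 of these 75 rose and 3 fell, near the 3.65% and 2.85% of all genes.

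Promoter sequences are shown because ATF4 is known to bind composite elements of the form TGATGNAA at amino acid genes. RefSeq sequence of GRCm38.p6 from 250 bases before to 50 after the start site was searched on both strands, for 13 cytosolic and 14 mitochondrial members with an entry. A match was found in 5 of the 13 cytosolic genes (38.5%), in 0 of the 14 mitochondrial genes and in 4.51% of 27025 genes. Counted from the start site, the matches given begin at 9 (Aars), 7 (Iars), 3 (Yars), -15 (Tars) and -30 (Gars). A second match in Aars, at -112, is not shown. For each of the 5 genes 1 window is given, on the strand that reads TGATGNAA, which is in capitals.
Aars, chr8:111033841-111033868 (-): cagagcgctcTGATGAAAagtgacccgc
Gars, chr6:55037961-55037988 (-): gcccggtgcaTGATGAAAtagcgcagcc
Iars, chr13:49682127-49682154 (-): cgtctggaggTGATGCAAtactgacagt
Tars, chr15:11399656-11399683 (+): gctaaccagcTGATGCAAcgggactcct
Yars, chr4:129189896-129189923 (+): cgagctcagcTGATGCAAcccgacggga
The 5 genes rose in polysome mRNA (log2 0.84 to 2.02). That is a difference between fractions, while ATF4 acts on transcription, and the part of a match in it was not tested. Sars (1.54), Mars1 (1.31) and Eprs (0.80), which also rose, held no match in this window. Neither did Dars, Farsa, Farsb, Kars and Qars, which limma did not call higher. A match is a run of letters and does not show binding.

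The last question was whether synthetase mRNAs carry m5C. To be called, a cytosine needed 20 or more reads, 6 or more of them unconverted, and a level of 10% or above. Of 6870 to 10180 cytosines of the 36 genes with that coverage, the 2 LF libraries held 0 and 1 called, the MF libraries 1 and 0, the pLF libraries 2 and 4, the pMF libraries 1 and 0 and the pHF libraries 0 and 7. Those labelled HF held 16 and 11. As a share this was 0% to 0.187%, beside 0.0295% to 0.500% over all genes, and it was the lower of the 2 shares in each library. In the LF and MF total libraries and those labelled HF the members' interval held the share of all genes (for the second LF library 0.00241% to 0.0773%, against 0.0295%, and for the first labelled HF 0.115% to 0.304%, against 0.272%), so a difference was not detectable there. In pLF, for example, the shares were 0.0284% (95% Wilson interval 0.00780% to 0.104%) and 0.0393% (0.0153% to 0.101%), against 0.168% and 0.147% over all genes, which lay above both intervals. The shares are of listed cytosines, and a cytosine is listed only with an unconverted read. Well covered genes, such as the cytosolic members, list more cytosines of a low level, which lowers their share. It therefore does not show that synthetase mRNAs carry less m5C. Where 0 were called, 3 counts of the total allow up to 0.0437% in the first LF library, 0.0388% in the second MF library, 0.0351% in the second pMF library and 0.0356% in the first pHF library; intervals and limits cover counting error only.

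Over the members' cytosines with a level under 0.05 the unconverted share was 0.082% to 0.140% for the cytosolic and 0.360% to 0.557% for the mitochondrial enzymes. Since a cytosine is listed only with an unconverted read, the share is higher where coverage is low, as it was for the mitochondrial genes.

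Only the libraries labelled HF held member cytosines called in both replicates, 8 in all, and the other 5 conditions held 0. Over all nuclear genes such cytosines numbered 2336 in the libraries labelled HF. They numbered 358 in LF, 402 in MF, 619 in pLF, 447 in pMF and 435 in pHF. The 8 against 0 therefore cannot be read as particular to the synthetases. The 8 lie in 7 cytosolic synthetase mRNAs, 5 in coding exons (Eprs exon 14, Iars exon 33, Tars exons 6 and 16, Lars exon 25) and 3 in 3′UTRs (Wars, Cars and Kars). The sequence around 7 of them is given from 10 bases before to 10 after, on the RNA strand (GRCm38.p6, written as DNA), with the called cytosine in capitals.
Tars exon 6, chr15:11392346 (-): ccttcaggggCgtgtccagca
Tars exon 16, chr15:11387268 (-): actatgggggCaaatggtaag
Cars 3′UTR, chr7:143557849 (-): ccaggaggggCgcacctgcca
Wars 3′UTR, chr12:108860096 (-): ggcacaagggCcactctgagt
Iars exon 33, chr13:49732459 (+): gagcaggaggCtaaggctgtt
Kars 3′UTR, chr8:111993555 (-): tctgagggagCgattcctgtg
Eprs exon 14, chr1:185396088 (+): atagaaggggCcgatgcagag
In 6 of the 8, GGG stood directly before the cytosine, and in 0 of the 8 at the 2nd to 4th base after it. Of 2336 cytosines of nuclear genes called in both libraries labelled HF 74.5% had GGG directly before, against 4.52% to 9.20% of those called in both replicates of another condition. GGG at the 2nd to 4th base after was found at 2.57% and at 8.56% to 13.3%. Among all cytosines with a coverage of at least 20 in the first library labelled HF, 2.49% of those in synthetase genes and 2.76% of those in all genes had GGG directly before.

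The levels of these cytosines were 12.8% and 14.2% for Eprs (126 of 984 and 129 of 907 reads), 27.8% and 45.5% for Wars (10 of 36 and 10 of 22) and 19.3% and 19.6% for Iars. Tars had 62.5% and 62.7% in exon 6 (352 of 563 and 202 of 322 reads) and 21.4% and 14.2% in exon 16. Lars had 35.9% and 24.7%, Cars 28.3% and 29.2% (126 of 445 and 91 of 312) and Kars 14.3% and 18.6%. The 2 replicates were close for Tars exon 6, Cars and Iars and lay farthest apart for Wars, with the lowest coverage. Where the same cytosines were listed in another library, the level was 0.0277% to 1.6%.

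**Figure D5:**
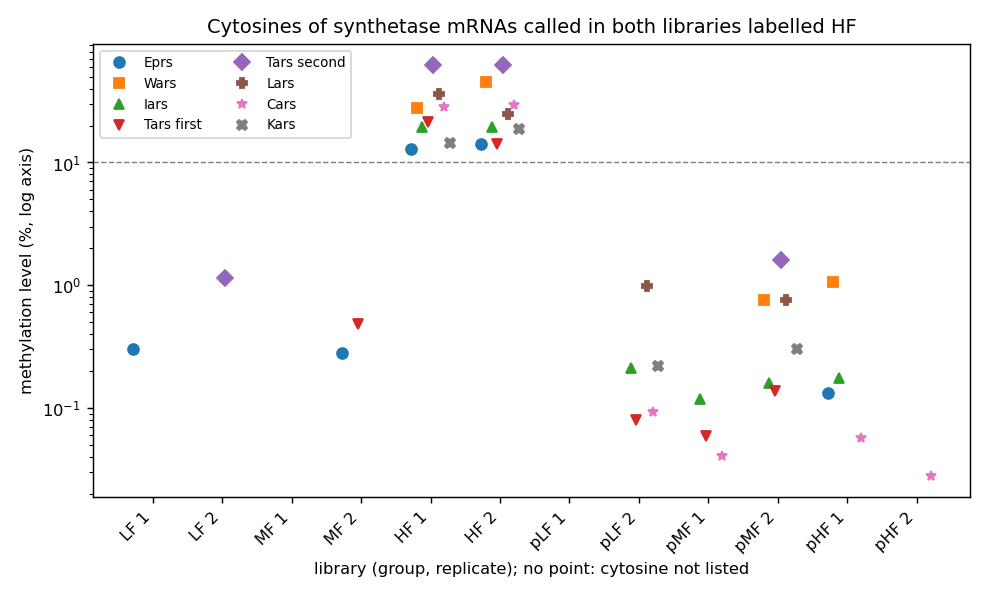
Methylation level (percent, log axis) of the member cytosines called in both libraries labelled HF, in each library that lists them; the dashed line marks the level of 10%. The libraries labelled HF lie between 12.8% and 62.7%, and all other listed values between 0.0277% and 1.6%.

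Only 1 member cytosine, in the Cars 3′UTR, was called in both replicates of a group and listed with 20 or more reads in all libraries of a comparison, that of pHF with HF, and so entered the test. Its level was 0.0566% and 0.0277% in the pHF libraries (of 1768 and 3611 reads) against 28.3% and 29.2% in those labelled HF. Pooled over replicates this was 0.0372% (2 of 5379) against 28.7% (217 of 757). This cytosine passed the level limit through the libraries labelled HF alone, which fixed the direction of the difference, so no p is given. Of all 649 cytosines tested in that comparison 33.4% were higher and 31.9% lower in pHF. In the other 6 comparisons 0 member cytosines could be tested with all libraries. The GGG context and the departure from the study's site list move with these levels, and their part in them was not tested. Another Cars cytosine, in exon 6 (chr7:143585755), was called in the first pLF library alone but listed in all 12 libraries. Its level was 0.355% to 1.23% in LF and MF, and 1.82% and 1.69% in those labelled HF. It was 1.78% to 10.4% in pLF and pMF, and 3.91% and 7.09% in pHF. It is named for these levels, and their difference was not tested with all libraries.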

How the data were processed

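RNA BS-seq was measured in 12 libraries, grouped by the labels. The authors used fastp for trimming, meRanGh for unique alignment to mm10, and meRanCall and meRanAnnotate for cytosine calls and their genes. For each cytosine they deposited counts of all reads (coverage) and of unconverted reads, with no normalization between libraries, before the authors' later site filters. Its methylation level was deposited as a fraction, unconverted over unconverted plus converted reads, without reads of another base. On recomputation 0 values differed. The submitters' processing notes name R 4.1.1.

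Members and lists were chosen with earlier results of these data known. Cytosines flagged with another variant base were dropped. The per-gene median coverage (level under 0.05, at least 10 cytosines in each library) was log2 transformed, centred on each library's median gene and tested with limma 3.58.1 (trend, 1 mean per condition, all 12 libraries) in R 4.3.3, with Benjamini-Hochberg adjustment and a threshold of 0.05. Coverage summed over a gene's cytosines counts 1 read several times, so count tests (edgeR 4.0.16, DESeq2 1.42.0) were alternatives, as was edgeR on unconverted reads. Cytosines called in both replicates of a group were tested with Fisher's exact test (scipy 1.17.1) and limma on log odds with a pseudocount of 0.5. Python 3.11.15, pandas 2.3.3 and matplotlib 3.10.9 were used, and the tests were tried on simulated data. Summed coverage was 1186213013 to 2857966129 a library. The study calls the replicates biological without saying how the cultures relate, so p-values measure the spread between these libraries. Named genes are those past the threshold, the 3 highest and 3 lowest of each class between fractions, the 2 highest and 2 lowest between concentrations, and genes of fixed lists. Alternatives were the gene measure, filters, scaling, test, a replicate block and leaving out libraries.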

Additional observations from a re-analysis of the deposited data

How the results depend on the processing

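Counts of synthetase genes called depended on the gene measure and on single libraries. Between fractions over LF and MF, 20 were called of 33 tested, 12 of 13 with cytosines listed in all 12 libraries, 13 of 13 with edgeR and 13 of 13 with DESeq2 on coverage summed over those cytosines, and 10 to 21 when 1 library was left out (10 without MF replicate 1, 12 without LF replicate 2, 13 without MF replicate 2 or pMF replicate 2). At LF 8 became 14 with edgeR on unconverted reads, an alternative chosen after seeing the data, and 3 to 11 without 1 library (3 without LF replicate 2, 4 without LF replicate 1). At MF 12 became 4 to 13 (4 without MF replicate 1, 5 without MF replicate 2, 6 without pMF replicate 1). At HF 8 became 5 with at least 30 cytosines, 14 with scaling by summed coverage, 14 with edgeR on unconverted reads, and 3 to 11 without 1 library (3 or 4 without any HF or pHF library). For HF against MF 7 became 3 with scaling by summed coverage, 11 of 13 tested with DESeq2, 1 with edgeR on unconverted reads, and 0 to 9 without 1 library (0 and 1 without MF replicates 1 and 2, 2 and 3 without HF replicates 1 and 2). For pHF against pMF 0 became 2 of 13 with DESeq2. For the difference of fractions between HF and MF 0 became 8 of 13 over shared cytosines, 1 with mean log2 coverage, 4 with a level limit of 0.02, 3 with quantile normalization, 7 of 13 with edgeR, 7 of 13 with DESeq2 and 0 to 3 without 1 library (3 without pLF replicate 1 or 2). Alternatives on shared cytosines tested fewer genes (1388 in all), and otherwise the cause was not tested. Over all 7475 genes edgeR on unconverted reads called 1689 at LF and 1736 at HF, against 1002 and 979 with limma. For HF against MF it called 49, against 486 with limma. For the other alternatives the share of all genes called is not given. Counts such as 13 of 13 therefore cannot be read as particular to the synthetases. Calls of a cytosine in a library, each library counted on its own, numbered 43, then 27 with a coverage of at least 50, 16 with a level of at least 0.2, and 142 with 3 and 22 with 10 unconverted reads. The 8 called in both libraries labelled HF became 6, 4, 10 and 7 under the same limits, in that order. The other conditions held 0 under each limit, and each also held fewer such cytosines than HF over the whole series. Member cytosines past Fisher's threshold without 1 library, which were selected for a level of at least 10% in 1 of the groups and so are no evidence of a difference, were 0 to 2 for HF against MF (2 without MF replicate 1), 1 to 4 for pHF against HF (4 without pHF replicate 2) and 0 to 1 for pLF against LF (1 without pLF replicate 2). Of single genes, Kars for HF against MF turned to 0.092 with edgeR and 0.101 with DESeq2 on summed coverage. With edgeR on unconverted reads Sars2 turned to -0.42 for HF against MF, and between fractions Sars2 to -0.59, Cars2 to -0.0628 and Qars to 0.75. The other alternatives chosen after seeing the data, cytosines of 1 gene only and leaving out the libraries labelled HF and pHF replicate 2, kept the count over LF and MF within 1.5 times. The class difference could not be had over shared cytosines, since no mitochondrial gene kept enough of them. The 15 correlations between the deviations of same-numbered libraries lay between -0.05 and 0.04. With 2 libraries a condition they cannot show whether same-numbered libraries shared a culture. With the replicate block 18 members were called over LF and MF, 8 at LF, 10 at MF, 7 at HF, 7 for HF against MF and 0 in the other comparisons of gene coverage.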
